A study of Homo sapiens with 8 samples.

Results

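The mRNAs of 10 enzymes of mitochondrial fatty acid oxidation, the breakdown of fatty acids in mitochondria, were followed in RNA captured by proximity labelling in HEK293T cells. They were taken by symbol (CPT1A, CPT2, ACADVL, ACADM, ECHS1, HADHA, HADHB, ACAA2, ETFA and ETFDH), each matched 1 row of both count tables, and they make up 10 of the 60664 genes listed. The rule uses their names alone, although the enzymes were chosen with earlier results of these data known. HEK293T is a transformed human embryonic kidney line. The cells expressed APEX2, an engineered peroxidase that tags RNA close to it with biotin in living cells, directed either to the nucleus (NLS) or onto the outer membrane of mitochondria (OMM), and biotin-tagged RNA was collected on streptavidin beads and sequenced. Each site had 2 labelled libraries and 2 unlabelled controls, 8 libraries in all, and every group expressed APEX2. The labels do not say which promoter drove APEX2, whether a line was 1 clone, or whether replicates were grown as separate cultures. The p-values therefore cover no more than the spread among these libraries, which may be technical. NLS libraries were ribominus total RNA made with a SMARTer stranded kit, and OMM libraries, titled trizol, were made with a TruSeq stranded mRNA kit, so site and kit cannot be told apart. An unlabelled control holds RNA recovered from the beads without labelling, and is not a measure of the whole cell's RNA.

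Long-chain fatty acids enter mitochondria as carnitine esters. CPT1A, in the outer membrane, makes the ester, and CPT2, on the inner membrane, turns it back into acyl-CoA. Inside, each turn of the cycle removes electrons (ACADVL for very long chains, ACADM for medium chains), adds water (ECHS1), oxidises again and splits off acetyl-CoA (ACAA2), while for long chains HADHA and HADHB together form the trifunctional protein that carries out the later steps. ETFA, a subunit of the electron transfer flavoprotein, takes electrons from the dehydrogenases, and ETFDH hands them on to the respiratory chain. All these proteins are encoded in the nucleus and made outside the matrix, so their mRNAs are present both where they are transcribed and in the cytosol. Most proteins bound for the matrix or inner membrane start with a presequence rich in arginine and lysine and poor in acidic residues, whereas CPT1A stays in the outer membrane.

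The start of each reading frame is shown for 5 of the mRNAs, since a presequence, where a protein has one, lies there. That start need not hold the targeting information of CPT1A. The first 60 coding bases of the GENCODE 29 transcript (GRCh38) are given 5′ to 3′, with arginine codons in capitals.
CPT1A: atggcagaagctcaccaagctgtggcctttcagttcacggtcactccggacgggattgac
ACADM: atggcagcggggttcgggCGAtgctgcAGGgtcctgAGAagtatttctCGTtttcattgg
ECHS1: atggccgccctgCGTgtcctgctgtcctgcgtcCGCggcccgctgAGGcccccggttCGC
HADHA: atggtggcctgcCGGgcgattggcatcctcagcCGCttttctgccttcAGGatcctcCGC
ETFDH: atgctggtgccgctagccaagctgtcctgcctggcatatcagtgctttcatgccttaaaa
Over the first 30 codons, CPT1A had 2 arginine, 0 lysine and 4 acidic codons. ACADM had 6 arginine, 1 lysine and 0 acidic codons, and HADHA 6 arginine and none of the others. ETFDH had 0 arginine and 4 lysine codons. Basic minus acidic codons came to -2 for CPT1A and to between 3 and 7 for the other 9.

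The genes lie apart in the genome except for HADHA and HADHB, which are neighbours on chromosome 2 and are transcribed away from each other. In GRCh38 CPT1A spans bases 68754620 to 68844410 of chromosome 11 on the minus strand, HADHA 26190635 to 26244726 of chromosome 2 on the minus strand and HADHB 26243170 to 26290468 on the plus strand. ECHS1 lies on the minus strand of chromosome 10 at 133362480 to 133373689, and ETFDH on the plus strand of chromosome 4 at 158672125 to 158709623. The HADHA and HADHB gene models overlap by 1557 bases with 0 exonic bases shared, and their RefSeq start sites (GRCh38.p14) are 307 bases apart. The 250 bases upstream of the HADHB start lie between the 2 RefSeq starts. They are printed on the plus strand (chr2:26244689-26244938), with GC boxes in capitals, and their part in any value was not tested.
HADHA and HADHB: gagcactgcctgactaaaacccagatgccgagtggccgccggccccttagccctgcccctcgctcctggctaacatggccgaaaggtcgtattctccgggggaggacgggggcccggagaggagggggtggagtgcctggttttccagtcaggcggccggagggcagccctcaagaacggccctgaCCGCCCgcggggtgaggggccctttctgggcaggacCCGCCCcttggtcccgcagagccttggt
GC boxes were sought as GGGCGG on both strands in RefSeq windows from 250 bases before to 50 after a start. Windows were found for 9 of the 10 genes, 10 windows in all, because ACADVL had 2 and ETFDH was not matched. A GC box was present in 7 of these 10 windows, against 45% of all 35116 windows of that length. The HADHA and HADHB windows overlap, and the GC box found in the HADHA window also lies in the HADHB window. The same box therefore counts for both. The CCAAT box, searched as CCAAT on both strands, was present in 1 of 10 (ETFA), against 34.6% of all windows. These matches describe the letters only.

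The libraries held 8039176 to 21096586 counts at NLS and 34705126 to 52421161 at OMM. The nuclear RNAs checked the site: NEAT1 had 86.7 and 99.99 CPM (a gene's count relative to its library's total, scaled with edgeR's TMM factors) in NLS controls against 1274 and 1440 after labelling, and MALAT1 1128 and 1183 against 5239 and 6257. The mtDNA transcript MT-CO1, made inside the mitochondrion, fell at both sites, with a log2 fold change of -2.58 ± 0.16 at NLS (edgeR adjusted p = 1.96e-05) and -2.06 ± 0.27 at OMM (edgeR adjusted p = 0.0384), and MT-ND1 gave -2.79 at NLS (called) and -2.13 at OMM (edgeR, not past the threshold). Of 6 genes expected in the line, VIM, CDH2, KRT18 and NEFL were present in every library and summed with KRT8 and PAX2 to 241.7 to 813.9 CPM, while PAX2 was at 0 in 2 OMM libraries. The sum of the 6 line genes fell with labelling at NLS, as most of the enzymes did, from 769.9 and 813.9 CPM to 280.3 and 241.7. PAX2 alone went the other way there, with means of 3.44 CPM in controls and 5.02 after labelling (not called by edgeR). At OMM the sum went from 566.2 and 587.7 CPM to 759.0 and 705.9, with mean CDH2 at 107 and then 244 CPM and mean VIM at 359 and then 370. The part of these genes in any result was not tested. Of 10 markers of other cell types, INS was at 0 in all 8 libraries, TTN reached 6.44 CPM and none of the rest exceeded 2.01 CPM.

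At NLS, labelled libraries held less of most of these mRNAs than the controls. Of the 10, 8 fell, 1 rose (ETFDH) and 1 (ACADVL) did not pass the test. Over all 20858 genes tested, 28.5% were called lower and 28.8% higher, and the median log2 fold change was -1.13 over the 10 enzymes and 0.14 over all genes. Of the genes tested 13856 were protein-coding, as all 10 enzymes are. Shares and medians over protein-coding genes alone were not computed. A call is an adjusted p under 0.05 in edgeR's quasi-likelihood F test, and log2 fold changes are labelled over control, with their standard error (SE). At OMM none of the 10 was called, and CPT1A had the only positive value. A fold change here compares RNA recovered from the beads with and without labelling, and is not the amount of an mRNA in the cells. These are bulk libraries, in which single cells cannot be told apart.

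**Figure D1:**
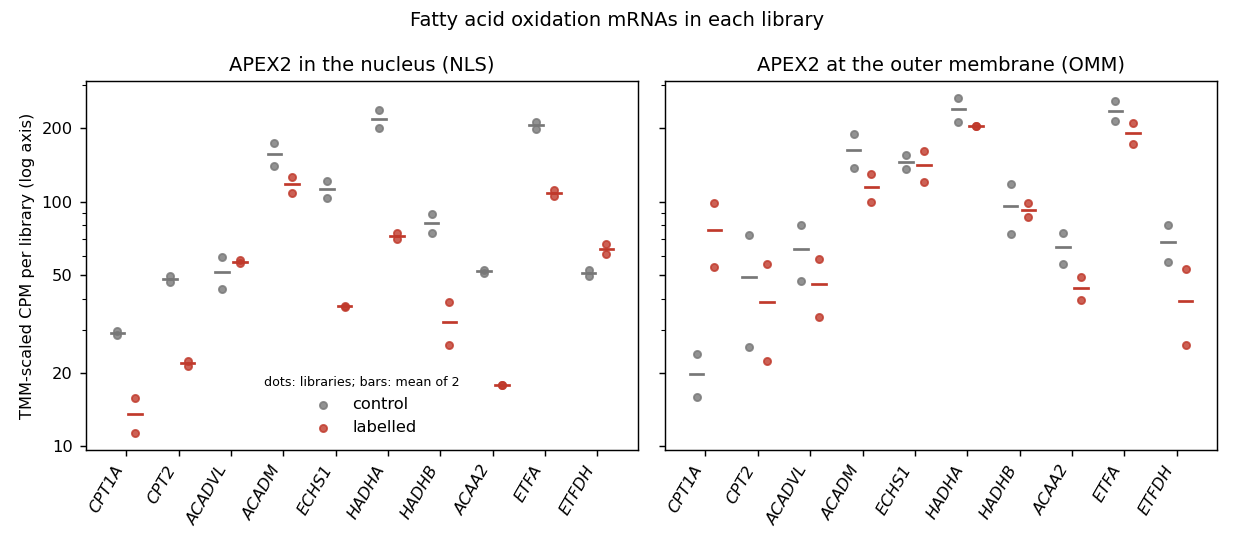
TMM-scaled CPM (log axis) of the 10 mRNAs in each library, controls in grey and labelled libraries in red, with bars at the mean of 2 libraries, for NLS on the left and OMM on the right. At NLS the red points lie under the grey ones for the 8 genes called lower. How many of all genes separate in this way at NLS was not counted, and 28.5% of all genes tested there were called lower. At OMM CPT1A is the only gene whose red points, 53.9 and 98.6, both lie over the grey ones, 15.9 and 23.8.

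Acyl entry is the first step of the pathway, and its outer membrane enzyme had the largest difference between the sites of the 10. CPT1A, the carnitine acyltransferase that commits long chains to oxidation, had 28.6 and 29.6 CPM in NLS controls against 11.3 and 15.8 after labelling. Both labelled libraries were below both controls, and CPT1A fell at NLS by 1.11 on the log2 scale (SE 0.20, edgeR adjusted p = 0.00230). At OMM its controls had 15.9 and 23.8 CPM, and the labelled libraries 98.6 and 53.9. Here both labelled libraries were above both controls, which held for 21.4% of the 14438 genes tested at OMM, and the libraries of each arm differed by 1.49 and 1.83 times. The OMM log2 fold change was 1.94 ± 0.48, or 3.84-fold, with an unadjusted p of 0.00356 and an edgeR adjusted p of 0.187, so CPT1A was not called. DESeq2 on the same counts gave 1.95 ± 0.42 with an adjusted p of 0.000146. The authors' deposited table lists 1.95, with 0.000144 in a column labelled P, which is close to that adjusted p.

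CPT1A was thus called at OMM by DESeq2 and, with its filter on low counts, not by edgeR, whose adjusted p without that filter was 0.00208. edgeR called 0.139% of genes higher at OMM and DESeq2 called 6.39%. Without the OMM control numbered 4 the edgeR adjusted p of CPT1A was 0.0298, without the labelled OMM library numbered 3 it was 0.00449, and over the 9 alternatives, DESeq2 included, it ran from 0.000146 to 0.354. CPT2, the second carnitine acyltransferase, had 47.0 and 49.45 CPM in NLS controls against 22.3 and 21.4 after labelling, which were both lower. It fell by 1.14 at NLS on the log2 scale (SE 0.14, edgeR adjusted p = 0.000262). With all 8 libraries in one fit the NLS values of CPT1A and CPT2 were -1.12 and -1.16 and neither was called (edgeR adjusted p = 0.123 and 0.278). At OMM the CPT2 libraries overlapped, with 25.5 and 72.7 CPM in controls and 22.3 and 55.7 in labelled libraries, a log2 fold change of -0.33 ± 0.63 (edgeR adjusted p = 0.966). The replicates of each OMM arm differed by 2.85 and 2.49 times for CPT2, the widest of the 10.

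Of the acyl-CoA dehydrogenases, ACADM fell slightly at NLS and ACADVL was not called. ACADVL, which starts the cycle on very long chains, had 44.0 and 59.2 CPM in NLS controls against 57.8 and 56.0 after labelling, so the arms overlapped. Its log2 fold change there was 0.14 ± 0.16 (edgeR adjusted p = 0.471), and 0.37 (edgeR adjusted p = 0.0279) without NLS control 3. ACADM, its medium-chain counterpart, had 173 and 139 CPM in NLS controls against 108.5 and 126 after labelling, both lower. ACADM fell by 0.41 on the log2 scale (SE 0.13, edgeR adjusted p = 0.0288), the smallest of the 8 decreases. It was called under 5 of 10 alternatives and not without NLS control 1 (-0.25) or labelled NLS library 1 (-0.28). At OMM, ACADVL had 47.5 and 80.0 CPM in controls and 58.35 and 33.7 in labelled libraries, which overlapped (log2 fold change -0.47 ± 0.45). ACADM had 189 and 136.5 CPM in OMM controls against 99.2 and 129 after labelling, both lower, with -0.51 ± 0.29 (edgeR adjusted p = 0.577).

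The hydratase ECHS1 and both subunits of the trifunctional protein stood low in the labelled NLS libraries. ECHS1 had 103 and 121 CPM in the NLS controls against 37.2 and 37.6 in the labelled NLS libraries. HADHA, the subunit with the hydratase and dehydrogenase activities, had 199 and 235 CPM against 74.3 and 70.2. HADHB, the thiolase subunit, had 74.7 and 88.8 CPM against 25.97 and 38.7. In each of these genes both labelled libraries lay below both controls, a pattern that was not counted over all genes at NLS. ECHS1 was 2.99 times lower after labelling, HADHA 3.004 times and HADHB 2.54 times, with edgeR adjusted p-values of 3.59e-05, 2.77e-05 and 0.000642. ACAA2, the matrix thiolase of the last step, had 52.7 and 51.0 CPM in NLS controls against 17.75 and 17.9 after labelling, and was 2.91 times lower (edgeR adjusted p = 6.57e-05).

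At OMM none of these 4 mRNAs was called. ECHS1 had 154 and 135 CPM in controls and 161 and 119.9 in labelled libraries, which overlapped (log2 fold change -0.04 ± 0.27). HADHA had 212 and 265 CPM against 203 and 204, both lower (-0.23 ± 0.23). HADHB had 118 and 73.65 CPM against 98.2 and 86.8, which overlapped (-0.05 ± 0.33). ACAA2 had 55.6 and 74.4 CPM against 49.2 and 39.6, both lower (-0.55 ± 0.39). Their edgeR adjusted p-values at OMM ran from 0.692 to 0.997, which does not show that labelled and control libraries were alike.

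The 2 electron transfer genes differed in direction at NLS. ETFA had 198 and 211 CPM in NLS controls against 106 and 112 after labelling, and fell by 0.91 on the log2 scale (SE 0.09, edgeR adjusted p = 0.000121). ETFDH had 52.3 and 49.7 CPM in NLS controls against 60.9 and 67.1 after labelling. It was the only one of the 10 to rise, by 0.33 ± 0.12 or 1.25-fold (edgeR adjusted p = 0.0435), and it was called under 4 of 10 alternatives. The call was lost, among others, with DESeq2, with all 8 libraries in one fit, without the NLS control numbered 3 and without either labelled NLS library. At OMM, ETFA had 213 and 256 CPM in controls against 209.8 and 171 in labelled libraries (-0.30 ± 0.23), and ETFDH 56.9 and 80.1 against 25.9 and 52.8 (-0.80 ± 0.46). Both labelled libraries were lower in each case, and neither gene was called (edgeR adjusted p = 0.750 for ETFA and 0.592 for ETFDH).

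Across the 10 genes at OMM, both labelled libraries lay below both controls in 5 (ACADM, HADHA, ACAA2, ETFA and ETFDH), above in 1 (CPT1A) and among them in 4. Over all genes tested at OMM, 22.5% lay below in the same way. edgeR called 0.0554% of all genes lower at OMM and none of the 10. At an unadjusted p under 0.05, CPT1A was the only 1 of the 10, among 1524 genes in all. DESeq2 called CPT1A alone among the 10 and called 5.58% of all genes lower. Replicates spread more at OMM, where the 10 mRNAs differed between replicates by a median of 1.40 times in controls and 1.32 times in labelled libraries, against 1.12 and 1.06 times at NLS.

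**Figure D2:**
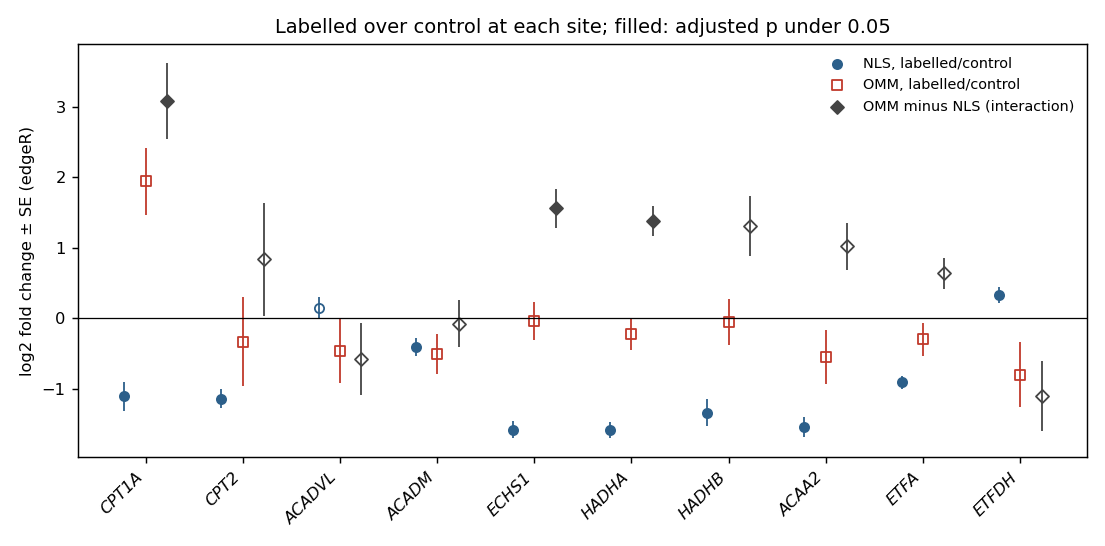
log2 fold change ± SE of labelled over control from edgeR for the 10 mRNAs at NLS (blue circles) and OMM (red squares), and the difference OMM minus NLS (dark diamonds), filled where the adjusted p was under 0.05. NLS values run from -1.59 for HADHA to 0.33 for ETFDH, and CPT1A alone has an OMM value above 0, at 1.94.

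Whether labelling changed an mRNA differently at the 2 sites was tested as the interaction of site and labelling over all 8 libraries. It was higher at OMM than at NLS for CPT1A (3.08 ± 0.54, edgeR adjusted p = 0.0228), ECHS1 (1.56 ± 0.28, edgeR adjusted p = 0.0229) and HADHA (1.38 ± 0.21, edgeR adjusted p = 0.0142). That is 3 of 10, against 6.73% of the 23178 genes tested, and 1.41% of genes were lower at OMM with none of the 10 among them. The fit took 1 spread per gene over both sites, although replicates spread more at OMM. For HADHA its SE (0.21) was smaller than the SE at OMM alone (0.23). HADHB had a value close to that of its partner HADHA, 1.31 ± 0.43, without passing the test (edgeR adjusted p = 0.131), which it did without OMM control 3 (1.70) and without the filter on low counts (1.28). ACAA2 had 1.02, CPT2 0.84, ETFA 0.64, ACADM -0.08, ACADVL -0.58 and ETFDH -1.10, none of them called by edgeR. At an unadjusted p under 0.05, 6 of the 10 were higher at OMM and 0 lower, among 5346 genes in either direction. DESeq2 called the same count of 3 higher and 1 lower, ETFDH, at -1.52 ± 0.56 (DESeq2 adjusted p = 0.0330), with 10.7% of all genes higher and 12.1% lower.

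The interaction calls depended on the scaling and on each NLS library. With library size alone, or with DESeq2's size factors in edgeR, 0 of the 10 were called higher, and the median over all genes moved from -0.11 to -0.57 and -0.52. Relative to that median, the 10 enzymes had a median of 1.04, 1.03 and 1.03 under the 3 scalings. With any 1 of the 4 NLS libraries left out, 0 of the 10 were called, and without either NLS control no gene of the whole table was. The CPT1A difference ran from 2.55 to 3.45 over its 12 alternatives and was called in 6 of them.

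Scaling also bore on the NLS values. With library size alone in place of TMM, 16.1% of all genes were called lower and 43.7% higher at NLS, and the median of all genes moved from 0.14 to 0.66. Of the 10 enzymes, 7 were then lower and 2 higher, ETFDH (0.84, edgeR adjusted p = 0.000660) and ACADVL (0.66, edgeR adjusted p = 0.00664). ACADM turned to 0.11 and was not called. Relative to the median of all genes, ACADM lay at -0.55 under both scalings, ACADVL at 0.0022 with TMM and 0.0044 without, and ETFDH at 0.19 under both. The median of the 10 relative to all genes was -1.26 under both.

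**Figure D3:**
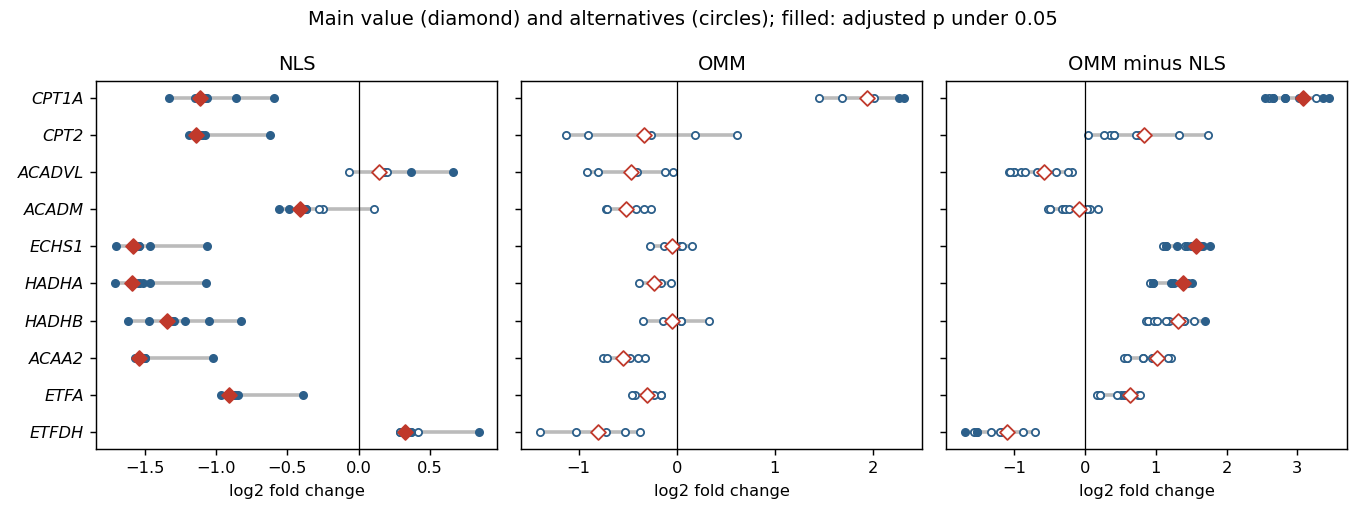
log2 fold changes of the 10 mRNAs under TMM and edgeR (red diamonds) and under each alternative scaling, test, filter or omitted library (blue circles), filled where the adjusted p was under 0.05, for NLS, OMM and their difference. At NLS ECHS1, HADHA, HADHB, ACAA2 and ETFA stay called under all 10 alternatives, and at OMM CPT1A ranges from 1.45 to 2.32 and is called under 4 of 9.

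Levels between genes were compared per kilobase of merged exons in the controls. In the NLS controls ECHS1 was highest, at 69.2 CPM per kilobase, followed by HADHA at 49.5, ETFA at 40.7, ACADM at 32.6 and HADHB at 19.1. ETFDH (11.4), ACADVL (10.6) and ACAA2 (10.2) lay close together. CPT2 had 4.61 and CPT1A 4.44 CPM per kilobase, the lowest pair. In the OMM controls the order on this scale was the same, from ECHS1 at 89.6 to CPT1A at 3.02, with HADHA at 54.4 and ETFA at 46.7. At NLS the ACADVL controls, at 9.05 and 12.2, spanned those of ETFDH and ACAA2, and the CPT2 controls overlapped those of CPT1A, while the controls of the other neighbours in this order did not overlap. At OMM the controls of ETFA overlapped those of HADHA, and those of ETFDH overlapped those of HADHB, ACADVL and ACAA2. The ACADVL and ACAA2 controls also overlapped at OMM, as did those of CPT1A (2.42 and 3.62) and CPT2 (2.44 and 6.96). CPT2 depends on the length used, because its merged exons add up to 10452 bases and its principal transcript to 3094. Per kilobase of transcript CPT2 had 15.6 and CPT1A 5.57 in the NLS controls, so CPT1A was lowest on both scales, and ETFA was first with 89.4.

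Genes that overlap could exchange reads, as the strand setting of the authors' counting is not given in the sources used here. ETFDH shares 490 exonic bases with PPID and 131 with C4orf46, both on the opposite strand, and those genes fell at NLS by 1.44 and 2.04 on the log2 scale. ACADVL shares 85 exonic bases with DLG4 on the opposite strand, which rose by 2.68 ± 0.35 at NLS (edgeR adjusted p = 0.000403). ACADM shares 157 exonic bases with RABGGTB on the same strand, at 0.95 ± 0.13 at NLS, and CPT2 shares 1151 with the antisense gene AL606760.2, at 1.86 ± 0.50, and 99 with C1orf123. ACAA2 shares 385 with AC090227.1 on the same strand, at -1.87 ± 0.27. The part of these neighbours in the members' values was not tested. The processed pseudogenes HADHAP1, HADHAP2 and HADHBP1 had at most 6 counts in any library.

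Across the 10 mRNAs, genomic span gave little order at NLS. Spearman's rho between the NLS log2 fold change and the genomic span was 0.079 over these 10 genes, and 0.23 over 13856 protein-coding genes tested. For exonic length rho was 0.26 over the 10 and 0.28 over the protein-coding genes. With the basic minus acidic codon count it was -0.16 at NLS and -0.11 at OMM over the 10. All points come from the same 4 libraries of a site and are not independent.

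The rest of fatty acid oxidation was mixed at NLS. Of 23 other genes listed with the pathway 22 were tested, and 11 fell, 4 rose and 7 did not pass, with a median log2 fold change of -0.23. Where the proteins of this list lie was not recorded, and not all need be mitochondrial. HSD17B10, a matrix dehydrogenase of short branched chains, fell by 1.80 on the log2 scale, with 70.8 and 76.7 CPM in NLS controls against 20.6 and 21.7 after labelling. ECH1, a dienoyl-CoA isomerase, fell by 1.62. ACAD9, a relative of ACADVL that is needed to assemble complex I, rose by 1.68 ± 0.10, from 54.55 and 61.5 CPM to 186.5 in both labelled libraries, and ACADL, the long-chain dehydrogenase, by 1.32 ± 0.35. At OMM none of the 22 was called by edgeR, with a median of -0.45. At an unadjusted p under 0.05, ACAD10 was the only 1, and DESeq2 called 1 higher and 1 lower. The difference between sites was called for ACSL3 (1.75 ± 0.32, edgeR adjusted p = 0.0262) and ACSL4 (1.80 ± 0.27, edgeR adjusted p = 0.0125), both membrane-bound enzymes that activate fatty acids ahead of CPT1A. ACSL4 had 71.1 and 74.6 CPM in the NLS controls, 32.9 and 34.1 with NLS labelling, 51.0 and 61.0 in OMM controls against 82.3 and 94.4 after labelling.

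Pathways next to fatty acid oxidation were set beside it. Of the TCA cycle enzymes, which burn the acetyl-CoA it yields, 15 of 18 fell at NLS and none rose (edgeR, none at an unadjusted p under 0.05 and none by DESeq2), with a median of -0.83, led by MDH2 at -1.69 and DLD at -1.64. With library size alone 8 TCA genes were lower and 2 higher. With all 8 libraries in one fit 9 TCA genes were lower, as were 2180 of all 23178 genes tested. The TCA list held 4 genes with a called difference between sites, all higher at OMM: CS (1.34), IDH2 (1.90), DLD (1.51) and MDH2 (1.44). In peroxisomal beta oxidation, which shortens very long chains, 6 of 14 fell and 2 rose at NLS, with a median of -0.29. SCP2 fell by 1.09 and EHHADH by 1.05, while ACOX3 rose by 1.18 and ACAA1, the peroxisomal thiolase, by 0.34. ACAA1 was the one peroxisomal gene with a called difference between sites (-1.58 ± 0.34, edgeR adjusted p = 0.0383), with 46.9 and 54.8 CPM in the OMM controls against 17.5 and 24.95 in the labelled OMM libraries.

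The smaller lists ran in several directions at NLS. The ETF-linked list of other dehydrogenases, most of which pass electrons to ETF, was tested for 7 of 9 genes. It had 3 higher and 1 lower, with a median of 0.50. D2HGDH, which oxidises D-2-hydroxyglutarate, rose by 1.72 and GCDH by 0.71, while ACADSB fell by 0.90. Ketone body enzymes, tested for 4 of 5, had 2 lower, ACAT1 (-1.11) and OXCT1 (-0.59), and 0 higher by edgeR with TMM or by DESeq2, with 1 at an unadjusted p under 0.05. Over all alternatives the ketone list had 0 to 2 higher, with 2 under library size alone. Among 10 regulators 5 rose and 1 fell, with a median of 0.45. MLYCD, the decarboxylase that removes malonyl-CoA, the inhibitor of CPT1A, rose by 2.59, from 7.94 and 16.2 CPM to 69.25 and 76.2, and ACACB, which makes malonyl-CoA, rose by 1.38, while PRKAA2, a catalytic subunit of AMPK, fell by 0.51. The MLYCD difference between sites was also called (-3.42 ± 0.63, edgeR adjusted p = 0.0262).

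**Figure D4:**
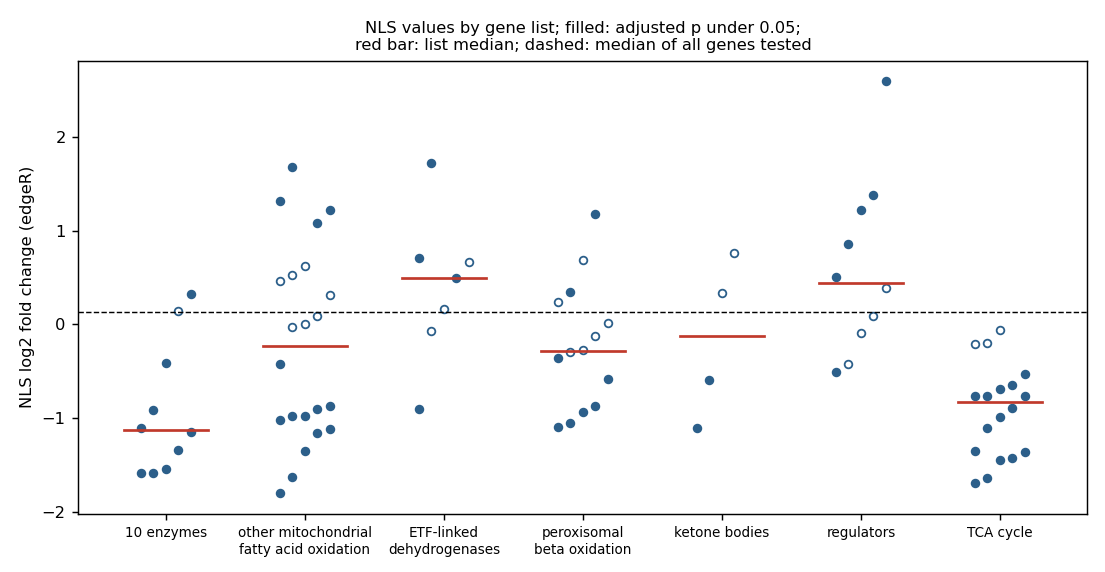
NLS log2 fold changes of the genes tested in each list, filled where the edgeR adjusted p was under 0.05, with list medians in red and the median of all genes, 0.14, dashed. The 10 enzymes (median -1.13) and the TCA cycle (-0.83) lie lowest, and the regulators (0.45) and ETF-linked dehydrogenases (0.50) lie above the dashed line.

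At OMM no gene of the ETF-linked, peroxisomal, ketone body, regulator or TCA lists was called by edgeR. At an unadjusted p under 0.05 these lists held 0, 1, 0, 2 and 0 genes, and DESeq2 called 0, 1, 0, 1 and 0. The medians at OMM were 0.0073, -0.17, -0.014, -0.0084 and -0.034 in that order, beside -0.32 for the 10 enzymes and -0.0017 for all genes.

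Among 7988 genes whose mean log2 CPM reached 4 or more at both sites, those with a pattern near to CPT1A over the 8 libraries included TFRC and LAMC1, at Euclidean distances of 0.599 and 0.601 in log2 CPM centred within each site. TFRC had log2 fold changes of -1.23 at NLS and 1.49 at OMM, and LAMC1 -1.08 and 1.77. Neither was called at OMM by edgeR, with adjusted p-values of 0.0828 and 0.0511. Nearest to HADHA were ARPC1A, SLC35A4 and PGAM1, at distances of 0.189, 0.22 and 0.228, with NLS values of -1.74, -1.58 and -1.58 and OMM values of -0.25, -0.20 and -0.16. Distances are smaller for HADHA. Its replicates also lay closer together than those of CPT1A at OMM, and the part of this in the distances was not tested.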

How the data were processed

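RNA captured by APEX2 labelling was sequenced from HEK293T cells, with 2 labelled and 2 control libraries at each of 2 sites. The authors deposited read counts per gene, aligned with STAR and counted with HTSeq against GRCh38.p13 or hg38, per the submitters' processing notes. Their deposited results tables give each gene a log2 fold change and a p-value, and the notes name DESeq2. The counting's strand setting is not given in the sources used here. The series text gives release with TRIzol or Proteinase K while the sample labels name an RNeasy kit, so the release step is not settled. Columns were assigned to groups by the site and arm in their names, and libraries carry the numbers in those names. Of the table columns, 4 count columns and 2 comparison columns matched no sample and were not used.

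The robust quasi-likelihood F test of edgeR 4.0.16 (R 4.3.3) was applied to the counts, two-sided, with TMM scaling, filterByExpr (minimum count 10), a prior count of 0.125 and Benjamini-Hochberg adjustment over all genes tested, at a threshold of 0.05. NLS and OMM were fitted apart, and their difference was the interaction in a fit of all 8 libraries. The SE was taken as the size of the log2 fold change over the root of F. DESeq2 1.42.0, other scalings, no filter, a fit of all 8 libraries, a replicate block and omission of each library were alternatives. Replicates of a group differed by more than sampling noise (chi-square per degree of freedom 4.98 to 229). A floor of 3 counts is 0.0572 to 0.373 CPM and covers counting error only. The scripts were tested on simulated counts.

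The enzymes and gene lists were chosen with earlier results of these data known. Named besides the 10 enzymes are genes of the other lists past the threshold at OMM or in the interaction, and at NLS the 2 highest and 2 lowest past it, with check genes and the 3 genes nearest in pattern to CPT1A and HADHA, of which 1 is not reported here. ACAD10 and ETFDH's neighbours were named after their values were seen. Sequences are from GENCODE 29 and RefSeq.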

Additional observations from a re-analysis of the deposited data

Results flagged for a closer look

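With TMM scaling, the test of the difference between sites called 3 of the 10 mRNAs, against 6.73% of all genes called higher at OMM. OMM minus NLS was 3.08 ± 0.54 on the log2 scale for CPT1A (edgeR adjusted p = 0.0228), where both labelled libraries were higher than both controls at OMM and lower at NLS. For ECHS1 it was 1.56 ± 0.28 (edgeR adjusted p = 0.0229) and for HADHA 1.38 ± 0.21 (edgeR adjusted p = 0.0142), and both of these fell at NLS and were not called at OMM. Site and library kit cannot be told apart in these values, and their SE and p pool the spread of both sites. Each of the 3 was called under 6 of 12 alternatives, and 0 of the 10 were called higher with library size alone, with DESeq2 size factors in edgeR or with any 1 NLS library left out.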

How the results depend on the processing

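At NLS, 8 of the 10 enzymes were lower and 1 higher. The higher count was 0 with DESeq2, 2 with library size alone, 0 with all 8 libraries in one fit, 0 with the replicate block and 0 to 1 with a library left out. The lower count was 5 with all 8 libraries in one fit and 7 to 8 with a library left out. Their median was -0.61 with library size alone and -1.20 to -0.96 with a library left out. Calls over all genes also fell with all 8 libraries in one fit. It called 2180 of 23178 genes lower and 212 higher at NLS, against 5945 and 5999 of 20858 in the main fit. The 5 other fatty acid lists had 14 higher and 21 lower, which became 25 and 10 with library size alone, 2 and 6 with all 8 libraries in one fit, and 10 to 23 and 15 to 23 with a library left out. At OMM no enzyme was called, but 1 was higher with DESeq2, 1 without the filter on low counts and 0 to 1 with a library left out. The other lists had 2 higher and 2 lower with DESeq2, and 0 to 1 and 0 to 2 with a library left out. In the interaction, 3 enzymes were higher, against 0 with library size alone, 0 with DESeq2 size factors in edgeR and 0 to 4 with a library left out, and the lower count was 1 with DESeq2 and 0 to 1 with a library left out. The interaction median of 0.93 was 0.51 with DESeq2, 0.45 with library size alone, 0.50 with DESeq2 size factors in edgeR and 0.67 to 1.10 with a library left out. The cause of these changes was not tested.

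Signs turned in the following cases, none of them called under the changed setting. With library size alone ACADM was 0.11 at NLS, and ECHS1 was 0.039 and HADHB 0.042 at OMM. With a library left out, ACADVL ran from -0.066 (without control 1) to 0.37 at NLS. At OMM, CPT2 ran from -1.13 to 0.62 (without control 4), with 0.18 without labelled library 2. ECHS1 ran from -0.27 to 0.16 (without labelled library 3), with 0.053 without control 3, and HADHB from -0.34 to 0.33 (without control 3), with 0.042 without labelled library 3. The ACADM interaction ran from -0.33 to 0.18 (without OMM control 3), with 0.071 without labelled OMM library 2 and 0.026 without NLS control 3.

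The replicate block on the column number left 8 enzymes lower and 0 higher at NLS, with ETFDH at 0.33 (edgeR adjusted p = 0.0648). The numbers 1 and 3 are shared by both NLS arms, and deviations of same-numbered libraries correlated at -0.033 over 20858 genes. That value shows no shared deviation, but it cannot settle whether same-numbered libraries were prepared together, which the labels do not give. No paired analysis was possible for OMM or the interaction because the OMM arms share only 1 number.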
